A study of Mus musculus with 4 samples.

Results

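Imprinted growth-programme genes are genes read from only the maternal or only the paternal chromosome that are known for high expression in the growing body and for a decline after the juvenile period. The 9 genes described here are H19, Dlk1, Peg3, Mest, Plagl1, Meg3, Cdkn1c, Grb10 and Ndn. They were chosen by name, with earlier results of these data known. Their measurement used all non-control probes whose accession belongs to one of these symbols. This gave 16 of the 56605 probes on the array and 9 of the 45622 genes tested. RNA came from the septal nasal mucosa, labelled as olfactory epithelium, of male C57BL/6J mice, for which no treatment or transgene is given. Young adult mice were 8 weeks old and aged mice 16 months old, and each age had 2 Agilent one-color arrays, each with the RNA of 5 pooled mice. Of its mice of each age, the study set aside for gene analyses too few to fill 2 separate pools of 5, so the pools of an age may share mice, and the P-values measure only the spread between these pools. The arrays do not tell the maternal and paternal alleles apart.

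Imprinted genes often act on growth in opposite directions. Paternally expressed genes such as Igf2, Peg3, Mest, Dlk1 and Plagl1 are in general known to promote growth or the upkeep of progenitor cells, whereas the maternally expressed genes H19, Cdkn1c and Grb10 are known to hold growth back. Many of them lie in clusters under a shared control region: H19 beside Igf2 with Cdkn1c in the neighbouring domain, and Dlk1 beside Meg3. The olfactory mucosa keeps dividing basal cells throughout life, above a lamina propria that holds fibroblasts, vessels and glands.

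In these pools the 9 genes did not move as a block. Peg3 and Ndn, each measured by 1 probe, were called lower in the aged mucosa, whereas none was called higher. H19 showed the largest difference of the 9 but did not pass the FDR limit. The average of Meg3 hid probes that moved in opposite directions with age. Cdkn1c, Plagl1 and Dlk1 were not distinguishable between the ages.

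Start-site sequences of the genes on which these results turn are shown first, from RefSeq on GRCm38.p6, each running from 250 bases before to 50 bases after an annotated start, 5′ to 3′ on the strand of the gene. The table holds such windows for 7 of the 9 genes and none for H19 and Cdkn1c. Capitals mark a cAMP response element (TGACGTCA), a TATA motif (TATAAA) or the core of an NRF1 motif (GCATGCGC). These motifs were picked after reading the windows and were searched on both strands. Peg3 (chr7:6730370-6730669, minus strand) and Ndn (chr7:62348027-62348326, plus strand) are the called genes, and Meg3 has 2 annotated starts, at chr12:109540746-109541045 and chr12:109545148-109545447 on the plus strand.
Peg3: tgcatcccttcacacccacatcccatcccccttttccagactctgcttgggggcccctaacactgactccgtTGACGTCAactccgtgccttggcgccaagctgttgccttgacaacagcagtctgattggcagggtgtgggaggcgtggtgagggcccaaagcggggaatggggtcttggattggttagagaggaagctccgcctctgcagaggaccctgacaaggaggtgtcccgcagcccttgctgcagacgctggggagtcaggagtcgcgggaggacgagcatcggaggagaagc
Ndn: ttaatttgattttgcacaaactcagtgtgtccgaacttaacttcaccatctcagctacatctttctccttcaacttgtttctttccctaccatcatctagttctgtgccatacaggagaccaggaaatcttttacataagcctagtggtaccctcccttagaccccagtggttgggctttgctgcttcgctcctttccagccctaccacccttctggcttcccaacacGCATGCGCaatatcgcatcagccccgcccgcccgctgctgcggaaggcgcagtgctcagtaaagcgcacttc
Meg3 start 1: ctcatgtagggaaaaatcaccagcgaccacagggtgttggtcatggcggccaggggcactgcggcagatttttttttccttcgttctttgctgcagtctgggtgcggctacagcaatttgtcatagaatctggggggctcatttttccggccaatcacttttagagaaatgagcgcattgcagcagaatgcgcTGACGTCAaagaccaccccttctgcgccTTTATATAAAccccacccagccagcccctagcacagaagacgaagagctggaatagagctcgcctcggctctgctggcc
Meg3 start 2: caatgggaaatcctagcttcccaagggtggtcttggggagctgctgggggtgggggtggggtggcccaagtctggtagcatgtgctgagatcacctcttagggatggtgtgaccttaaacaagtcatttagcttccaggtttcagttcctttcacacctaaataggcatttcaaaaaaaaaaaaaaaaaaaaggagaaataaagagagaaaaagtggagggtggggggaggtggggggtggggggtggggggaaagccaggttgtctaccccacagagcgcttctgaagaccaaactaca

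The cAMP response element lay in 2 of the 11 windows of these genes, those of Peg3 and of Meg3 start 1, whereas 1.79% of all 32851 start windows hold it. Common motifs were counted too. A GC box (GGGCGG) was found in 6 of the 11 windows and in 35.7% of all windows, and CCAAT in 2 of the 11 and in 37.4% of all. The 6 windows with a GC box are not independent. Those of Mest at chr6:30737800-30738099 and chr6:30737803-30738102 overlap almost fully. The NRF1 core was found in the Ndn window and in 2.71% of all windows. The window of Meg3 start 1 held TATAAA on both strands in overlapping positions, and 13.6% of all windows hold that motif. Start 1 of Meg3 had 13 CpG sites and start 2 had 1, whereas the median of all windows was 7. Peg3 had 13 CpG sites and Ndn 11. These matches describe letters only and no binding was measured.

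H19, Mest and Meg3 also host microRNAs, small RNAs that pair with messages through their seed, bases 2 to 8, shown here in capitals. H19 holds miR-675 (chr7:142577112-142577133 for the 5p arm, minus strand), Mest holds miR-335 (chr6:30741314-30741336, plus strand) and Meg3 holds miR-770 (chr12:109563710-109563731, plus strand). No 2 of these arms share a seed.
mmu-miR-675-5p: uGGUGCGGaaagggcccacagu
mmu-miR-675-3p: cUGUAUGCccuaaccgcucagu
mmu-miR-335-5p: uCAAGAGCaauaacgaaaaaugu
mmu-miR-335-3p: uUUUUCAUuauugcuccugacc
mmu-miR-770-5p: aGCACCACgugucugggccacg
mmu-miR-770-3p: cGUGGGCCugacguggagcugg
The array had 0 probes for Mir675, Mir335 and Mir770, so the host transcripts were measured and the microRNAs were not.

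Each array carried 59305 non-control spots, of which 63.1 to 76.8% were well above background, and 0 were saturated. Correlations of normalized values were 0.987 between arrays of each age. Young adult array 1 and aged array 1 shared a slide and correlated at 0.982, and each of the other 2 arrays was the only one of the 4 on its slide. Levels below are quantile-normalized intensities, and differences are log2 fold changes of aged minus young adult with the standard error (SE) of limma. Genes with P below 0.05 and FDR below 0.25 (Benjamini-Hochberg, over the whole table) were called, and a called gene with a mean intensity of 100 or more and a change of 1.5-fold or more was a DEG. Mature olfactory receptor neuron markers were abundant on every array, with Omp between 286061 and 332591, and sustentacular cell markers likewise, with Cyp2g1 between 221117 and 252656. In bulk tissue, fewer cells of a type and less RNA per cell cannot be told apart.

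The 9 genes were chosen with earlier results of these data known. The shares of all genes given beside their counts are therefore background, not a test. Of the 9 genes, 2 were called lower in aged mucosa, whereas 2.33% of all genes tested were called lower. None was called higher by limma, against 1.65% of all genes, and at an unadjusted P below 0.05 the counts were 5 lower and 0 higher, whereas 7.09% of all genes were lower and 6.05% higher at that limit. The DEG limits left only Peg3, and 1.15% of all genes were lower DEGs. Both aged pools lay below both young adult pools for 6 genes (H19, Peg3, Mest, Meg3, Grb10 and Ndn), whereas 21.8% of all genes showed that order. For Meg3 that order holds only for the average over its probes, which moved in opposite directions. For 1 gene, Plagl1, both aged pools lay above, the order of 24.2% of all genes, and Cdkn1c and Dlk1 overlapped. The median log2 difference of the 9 genes was -0.34, and that of all genes was 0.0092. With any 1 of the 4 arrays left out, none of the 9 and 0 of all genes were called.

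**Figure D1:**
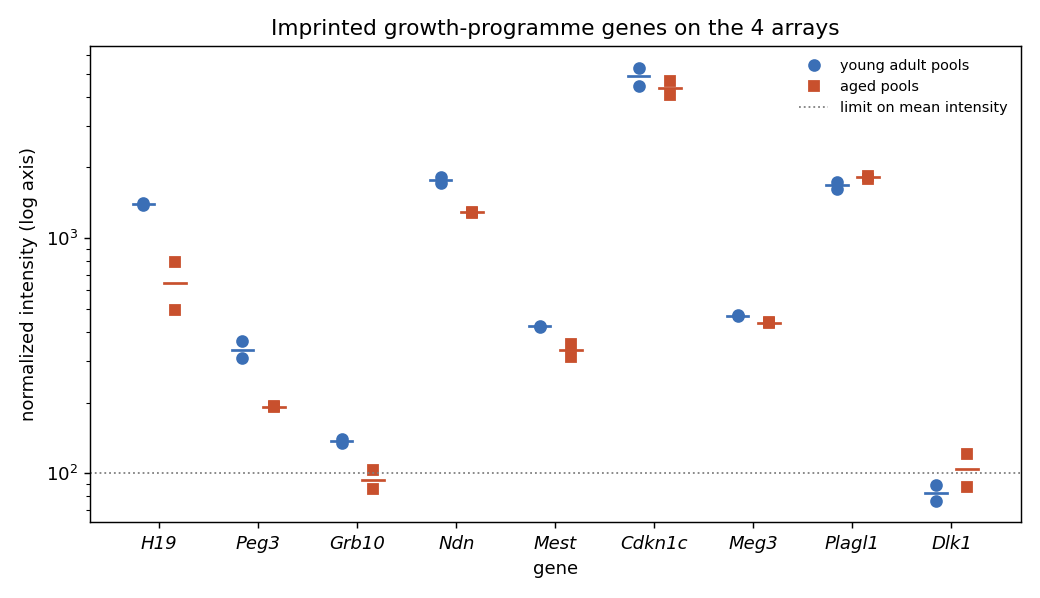
Normalized intensity (log axis) of the 9 genes on the 4 arrays, with a circle for each young adult pool, a square for each aged pool and a short line at each mean of 2 pools. The aged squares of H19, Peg3, Grb10, Ndn and Mest sit below their young adult circles, whereas those of Cdkn1c and Dlk1 overlap them and those of Plagl1 lie above; the dotted line marks the mean intensity limit of 100.

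H19 is a maternally expressed long noncoding RNA of the Igf2 domain and is very abundant in fetal tissue. Its probe measured 1409 and 1384 in the young adult pools and 795 and 497 in the aged pools. The young adult pools were nearly equal and the aged pools, although both lower, lay far apart. The difference was -1.15 (SE 0.27), a 2.22-fold lower mean, with FDR = 0.290 in limma, so that H19 was not called; the 95% interval ran from -1.96 to -0.34. It was -0.83 between the arrays of the shared slide and -1.48 between the other 2 arrays. Another probe, to which the array design gives the name H19 and no accession, measured 129 and 163 in young adult pools and 90.4 and 84.0 in aged pools, a difference of -0.74 (FDR = 0.258). With that probe averaged in, H19 was called at -0.94 (FDR = 0.248).

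Peg3 encodes a large zinc finger protein that is expressed from the paternal allele and marks many adult stem and progenitor cells. Its only probe measured 364 and 308 in the young adult pools and 191 and 193 in the aged pools. The aged pools were almost identical and both lay far below the young adult pools. Peg3 fell by 0.81 on the log2 scale (SE 0.12), 1.75-fold, with FDR = 0.210, and it was the only DEG of the 9. The difference was -0.93 on the shared slide and -0.68 between the other 2 arrays.

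Ndn encodes necdin, a MAGE family protein of postmitotic neurons that is known to restrain proliferation and is paternally expressed. Its only probe measured 1716 and 1816 in young adult pools and 1285 and 1296 in aged pools. The groups were well separated and each was tight. Ndn fell by 0.45 on the log2 scale (SE 0.08), 1.37-fold, with FDR = 0.240, below the fold limit for a DEG. The values were -0.42 on the shared slide and -0.49 between the other 2 arrays. The call was lost when arrays were scaled to the 75th percentile (FDR = 0.262), and both Peg3 (FDR = 0.260) and Ndn (FDR = 0.269) lost it when the processed signal of the scanner software was scaled in that way.

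Grb10 encodes an adaptor that binds the insulin and IGF1 receptors and dampens their signal. Averaged over 2 probes, it measured 135 and 140 in young adult pools and 85.4 and 103 in aged pools. Both aged pools were lower, at a dim level: 1 probe was well above background on only 1 of the 2 aged arrays. The difference was -0.55 (SE 0.13; FDR = 0.286) and Grb10 was not called, although its 95% interval (-0.94 to -0.17) did not include 0. The 2 probes moved alike, by -0.70 and -0.41.

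Mest encodes a hydrolase-like protein of the endoplasmic reticulum known from mesoderm and fat tissue expansion. Its intensity was 422 and 421 in the young adult pools and 312 and 354 in the aged pools. The young adult pools were indistinguishable and both aged pools lay below them. The difference was -0.34 (SE 0.10; FDR = 0.343), and the 2 probes gave -0.32 and -0.36. Mest was not called.

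Cdkn1c encodes p57, an inhibitor of cyclin-dependent kinases that lets cells leave the cycle. Its only probe measured 5319 and 4442 in the young adult pools and 4647 and 4076 in the aged pools. The first aged pool was above the second young adult pool, so the groups overlapped. The difference was -0.16 (SE 0.14; FDR = 0.688), with a 95% interval from -0.59 to 0.27.

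Plagl1 encodes a zinc finger transcription factor that acts on other imprinted genes. Its values were 1734 and 1625 in young adult pools and 1791 and 1848 in aged pools. Both aged pools were slightly higher. The difference was 0.12 (SE 0.08; FDR = 0.623), with a 95% interval from -0.13 to 0.37, and both of its probes were above 0, at 0.04 and 0.19.

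Dlk1 encodes a membrane-bound and shed relative of Notch ligands that keeps preadipocytes and other progenitors undifferentiated. Its averages were 89.0 and 76.5 in young adult pools and 87.3 and 121 in aged pools, and its mean of 93.6 was the only one of the 9 below 100. A single aged pool was high and the other lay among the young adult pools. The difference of 0.32 (SE 0.21; FDR = 0.606) was -0.03 on the shared slide and 0.67 between the other 2 arrays. The brighter probe measured 113 and 105 in young adult pools and 141 and 169 in aged pools, a difference of 0.50 (FDR = 0.303), while the other gave 0.13 and was well above background on only 1 aged array. No direction can be given for Dlk1 as a gene.

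**Figure D2:**
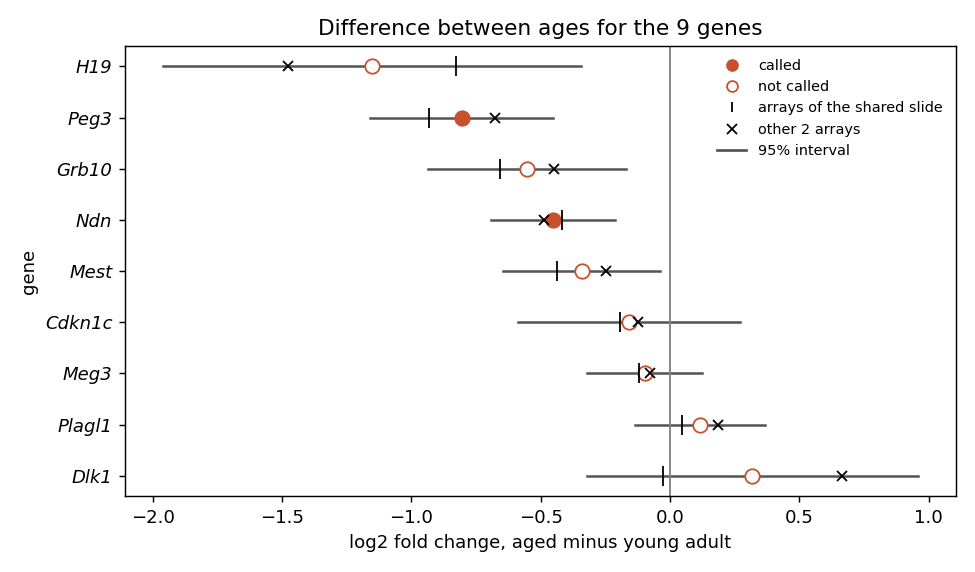
Log2 fold change of aged minus young adult for the 9 genes (circles, filled where called) with the 95% interval of the limma fit, and the same difference between the 2 arrays of the shared slide (bars) and between the other 2 arrays (crosses). The intervals of H19, Peg3, Grb10, Ndn and Mest lie below 0, whereas those of Cdkn1c, Meg3, Plagl1 and Dlk1 include it.

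Meg3 is a maternally expressed long noncoding RNA, spliced in many forms, at the start of a noncoding transcription unit that goes on through Rian and Mirg. Averaged over its 4 probes it measured 472 and 465 in young adult pools and 434 and 441 in aged pools. The average differed by only -0.10 (SE 0.07; FDR = 0.640), with a 95% interval from -0.32 to 0.12. The probes, designed against 2 RefSeq transcripts, were far from alike.

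A pair of probes is assigned to the transcript NR_027652, and both fell. Probe A_51_P455997 measured 2627 and 2570 in young adult pools and 1676 and 1750 in aged pools, a difference of -0.60 (FDR = 0.191 in a fit over all probes). Probe A_55_P2033407 measured 467 and 460 in young adult pools and 304 and 291 in aged pools, a difference of -0.64 (FDR = 0.185). Each group of pools was tight and the ages were fully separated on both probes.

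The other pair is assigned to the transcript NR_003633, and its values went the other way. Probe A_65_P01584 measured 111 and 115 in young adult pools and 160 and 165 in aged pools, and it rose by 0.53 (FDR = 0.201). Probe A_55_P2736010 measured 363 and 345 in young adult pools and 436 and 452 in aged pools, a difference of 0.33 that was not called (FDR = 0.293). Both aged pools exceeded both young adult pools on each probe.

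The log2 ratio of the NR_027652 pair over the NR_003633 pair was 2.46 and 2.45 in young adult pools and 1.43 and 1.39 in aged pools. It therefore fell by 1.05 between the ages, by 1.03 on the shared slide and by 1.06 between the other 2 arrays, with SDs of 0.0091 (young adult, n = 2) and 0.032 (aged, n = 2). With limma's diffSplice, each of the 4 probes differed from the other probes of the gene, at FDR between 0.0021 and 0.0070, whereas 0.428% of the 17982 probes tested in genes with several probes did so at an FDR below 0.25. That test was chosen after the values were seen, and it treats the probes of an array as independent, which makes its P-values too small. With single arrays left out, the FDR ranged from 0.10 to 0.59, and the call was lost for all 4 probes without aged array 1 and without young adult array 1 and for A_55_P2736010 also without young adult array 2. The probes' places within the Meg3 transcripts, and which start shown above each transcript uses, were not analysed here. No such difference was called between the probes of Dlk1, Mest, Plagl1 or Grb10.

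**Figure D3:**
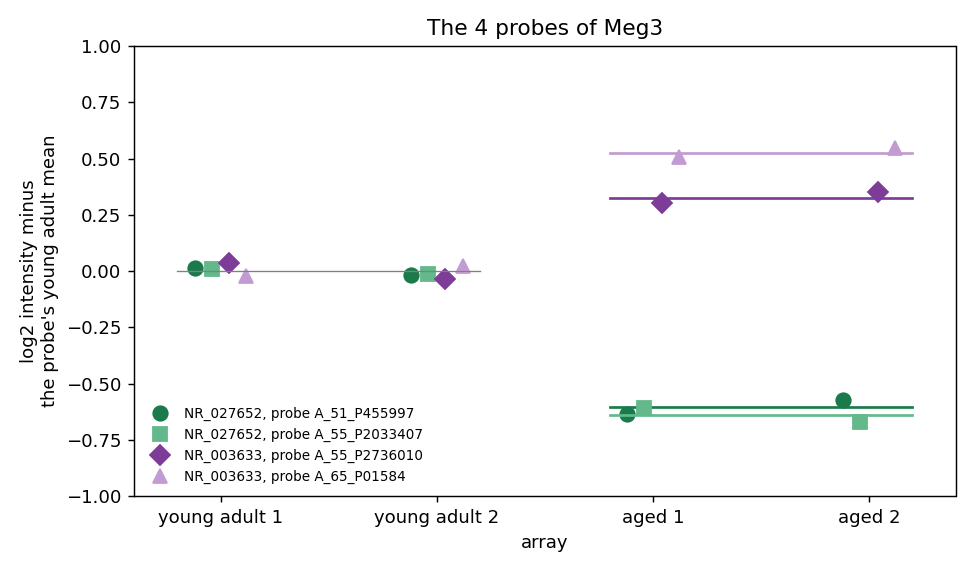
Log2 intensity of the 4 Meg3 probes on each array, minus each probe's mean in the young adult pools, with lines at the aged means. In both aged pools the NR_027652 probes (green circles and squares) lie near -0.60 and -0.64, and the NR_003633 probes (purple diamonds and triangles) near 0.33 and 0.53.

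The genes that share an imprinted cluster with the 9 were compared as a list of 37, of which 34 were measured. By limma 0 were called lower and 1 was called higher, and at an unadjusted P below 0.05 the counts were 2 lower and 1 higher. In all, 19 neighbours had a lower and 15 a higher mean in the aged pools, and in the domain of H19 and Cdkn1c these counts were 5 and 9 of 14. Their median difference was -0.02, near that of all genes. Igf2, the paternally expressed growth factor beside H19, measured 1195 and 1128 in young adult pools and 985 and 841 in aged pools. Both aged pools were lower, and the difference of -0.35 (SE 0.12; FDR = 0.385) was not called. Trpm5, a cation channel of taste and other chemosensory cells from the list of the H19 and Cdkn1c domain, measured 151 and 172 in young adult pools and 272 and 241 in aged pools. It rose by 0.67 (SE 0.12; FDR = 0.244) and was a DEG, as were 0.813% of all genes in that direction.

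In the Dlk1 and Meg3 cluster 4 of 5 neighbours had lower means, and the downstream noncoding RNAs were lower in both aged pools. Mirg measured 159 and 165 in young adult pools and 129 and 131 in aged pools, a difference of -0.32 (FDR = 0.292), and Rian, which hosts small nucleolar RNAs, differed by -0.21 (FDR = 0.457). Neither was called, nor were Dio3, a deiodinase that inactivates thyroid hormone (-0.45), and Begain (0.09), whereas Rtl1 was not well above background on any array. In the Ndn cluster 3 of 6 measured neighbours were lower and 3 higher, and none was called. Snrpn, a splicing protein gene, differed by -0.16, Magel2, a relative of necdin, by -0.11 and Atp10a by -0.04, and the pools of Magel2 and Atp10a overlapped. Both aged pools exceeded both young adult pools for Peg12 (0.31), the ubiquitin ligase gene Ube3a (0.13) and Mkrn3 (0.10). Magel2 and Mkrn3 were dim, each well above background on only 1 array of each age. Around Peg3, Usp29, Peg3os and Zim1 were too dim to set beside it, since on no array did Zim1 or Peg3os rise well above background and Usp29 did so on 1 array. Copg2, the gene beside Mest, differed by -0.01 with overlapping pools. These neighbours were named after their values were seen, except Igf2 and Trpm5.

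**Figure D4:**
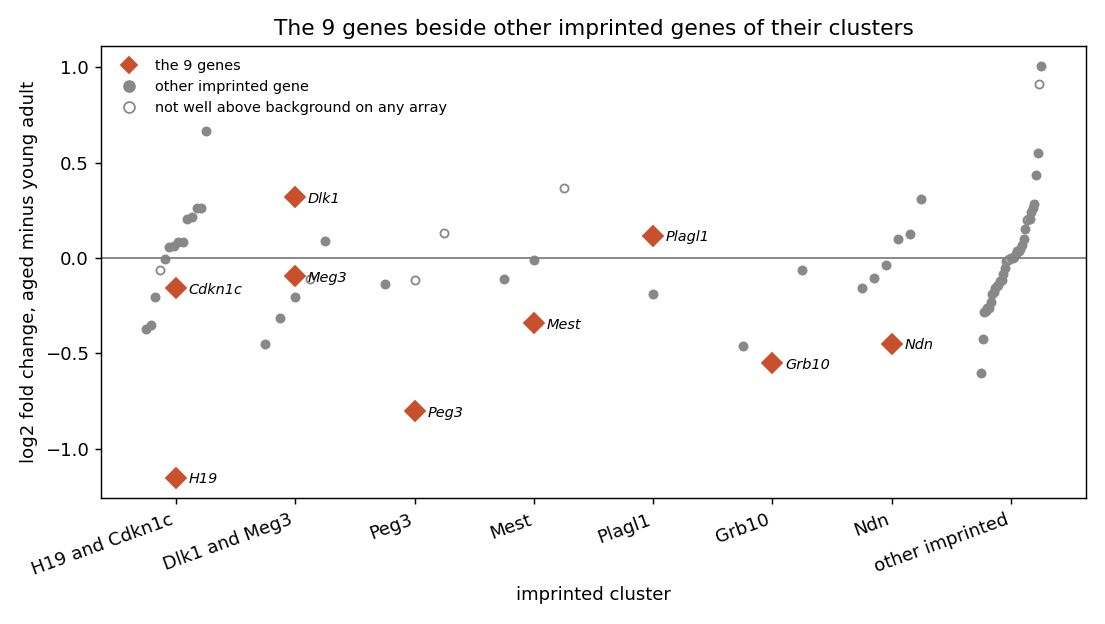
Log2 fold change of aged minus young adult (vertical axis) for the 9 genes (diamonds) beside the other listed imprinted genes of each cluster and imprinted genes elsewhere (circles, open where no array was well above background), spread sideways only for legibility. H19 and Ndn lie below every filled circle of their clusters, the 3 neighbours of Peg3 are at or near background, and the median neighbour lies at -0.02.

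Among 39 measured imprinted genes elsewhere in the genome, 1 was called lower and 1 higher. At an unadjusted P below 0.05, 3 were lower and 5 higher, and the median difference of the 39 was -0.0027. Of the 39, 26 had a mean intensity of 100 or more, and for 5 none of the 4 arrays rose well above background. Sgce, a paternally expressed sarcoglycan of the membrane complex that anchors cells to the matrix, measured 1870 and 1943 in young adult pools and 1198 and 1318 in aged pools. It fell by 0.60 (SE 0.09; FDR = 0.217) and both of its probes gave -0.60. Rasgrf1, a paternally expressed exchange factor for Ras, measured 45.9 and 38.3 in young adult pools and 77.2 and 91.5 in aged pools. It rose 2.01-fold (FDR = 0.217) at a mean below the limit of 100.

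Relatives of the 9 genes and growth genes that are not imprinted were listed as well, whereas of all genes 2.33% were called lower and 1.65% higher. None of 8 relatives (Cdkn1a, Cdkn1b, Grb7, Grb14, Plag1, Plagl2, Dlk2 and Maged1) was called by limma, 0 had an unadjusted P below 0.05, and their median difference was -0.10. Of these relatives 7 had lower means and 1 a higher mean. Both aged pools lay below both young adult pools for 5 of them, the order of 21.8% of all genes, and above for 1. Of 15 growth genes that are not imprinted, 1 was called lower: Gpc3, a cell-surface glypican known to restrain growth, measured 908 and 944 in young adult pools and 697 and 683 in aged pools (-0.42, FDR = 0.243). The median of these 15 was -0.13, 11 had lower means, 9 had both aged pools below both young adult pools, and 3 were lower and 0 higher at an unadjusted P below 0.05. The 3 genes with a pattern over the 4 arrays nearest to the mean of the 9, among 15325 compared, were Filip1l, Ntrk2 and Timp2, at distances of 0.0095, 0.021 and 0.022 on the log2 scale. Their differences of -0.35, -0.33 and -0.36 were not called.

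Markers of other cells moved with age in the same pools. All 10 proliferation genes lay lower in both aged pools and 5 were called, with a median of -0.47, Birc5 at -0.64, Top2a at -0.61, Mki67 at -0.56 and Ccna2 at -0.47. Of 8 fibroblast markers 5 were called lower, and their summed intensity was 161490 to 172788 in young adult pools and 58888 to 60780 in aged pools. Col1a1 (-1.98), Col3a1 (-1.97), Col1a2 (-1.52) and Dpt (-1.24) led that list. Called lower were also 4 of 8 bone markers (Ibsp at -1.09, Bglap2 at -0.97, Dmp1 at -0.63 and Runx2 at -0.50), 3 of 6 endothelial markers (Tie1 at -0.84, Eng at -0.75 and Kdr at -0.59), 1 of 9 cartilage markers (Acan at -1.30) and 2 of 7 basal cell markers (Kit at -0.60 and Krt5 at -0.49). In the other direction, 1 bone marker (0.80), 2 cartilage markers and 1 basal cell marker had higher means in aged pools, whereas no endothelial marker did. Of these lists, only bone had a marker higher at an unadjusted P below 0.05, with 1. All 8 mature neuron markers lay higher in both aged pools, with a median of 0.20 and 1 called, Stoml3 at 0.43. All 6 immature neuron markers had lower means, 5 of them in both aged pools, with a median of -0.29 and 1 called, Dbn1 at -0.42. Of the 5 sustentacular, 9 muscle and 5 adipocyte markers limma called 0, and at an unadjusted P below 0.05 the counts were 1, 3 and 0. Of the 8 pituitary markers 2 were called, both higher, and the source of their RNA was not tested. The 8 summed to 1213 and 1304 in young adult pools and 9859 and 9361 in aged pools, of which the hormone gene Prl alone was 282 and 238 in young adult pools and 8150 and 7969 in aged pools. Gh, the other called gene, was not well above background in young adult pools and measured 326 and 336 in aged pools. The pools of 4 pituitary markers overlapped, 2 had lower means, and the defining regulator Pou1f1 was not well above background on any array. The part of these markers in the values of Peg3, Ndn, H19, Meg3 and Dlk1 was not tested.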

How the data were processed

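Septal nasal mucosa RNA of each age was hybridized to 2 of the 4 Agilent one-color arrays. The authors extracted spot intensity with Feature Extraction 11.0.1.1 and deposited for each array the median spot intensity, the median local background, a processed intensity and quality flags, without normalization between arrays. The deposited series table held the same processed intensity for all 62976 spots of each array. A label text on silica and lung fits neither titles nor study and was not used.

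Using limma 3.58.1 (R 4.3.3), local background was removed from the median spot signal by normexp with an offset of 0, since no mean signal was given. Control spots and outlier spots (88 to 118 per array) were left out, spots of a probe were averaged, log2 values were quantile normalized and probes of a gene were averaged. Accessions without versions were matched to the RefSeq table of GRCm38.p6 for 32994 of 56605 probes, and the rest kept the array's identifier. Ages were compared with lmFit and eBayes without covariates (2 residual and 1.38 prior degrees of freedom), and each probe in a fit over all probes. The fit was tested on simulated data. An exact permutation test of a single gene cannot go below P = 0.333 here, so none is given. Motifs were counted in RefSeq start windows.

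The 9 genes and all lists were chosen with earlier results of these data known. Named are all 9, every called cluster neighbour plus Igf2, up to 4 called genes of each other list by size of change, and the 3 genes nearest in pattern, by Euclidean distance of centred log2 values among genes with a symbol, a mean of at least 100 and no place on a list. Other neighbours were named after their values were seen, as were Pou1f1, Omp and Cyp2g1. The lists held imprinted neighbours and other imprinted genes, growth genes, relatives, proliferation genes and markers of mature and immature neurons, basal and sustentacular cells, fibroblasts, bone, cartilage, muscle, pituitary, endothelium and adipocytes. Alternatives were other backgrounds, signals, scalings, probe rules, thresholds, blocks and arrays left out. The number of arrays limits the precision.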

Additional observations from a re-analysis of the deposited data

How the results depend on the processing

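The direction of each of the 9 genes held in every alternative run, except for Dlk1 (-0.03 on the shared slide alone). Peg3 was called in 13 and Ndn in 11 of 16 tested alternatives other than leaving out arrays, Grb10 in 8, H19 in 6, Mest in 3 and Meg3 in 2 (most intense probe, -0.60, and linear probe average, -0.43). Of the 9, the number called lower, 2 in the report, was 4 with offset 16 and 5 with offset 50, 4 without background correction, 0 with the processed signal scaled to the 75th percentile, 5 without dim probes, 5 with an intensity trend, 0 at FDR below 0.05 and 1 with the DEG limits. For all genes called, 1817 in the report, the counts were 2991 with offset 16, 4587 with offset 50, 4041 without background correction, 4378 with the processed signal quantile normalized, 7154 without dim probes, 2734 with a linear average, 7130 with a trend, 0 at FDR below 0.05 and 894 with the DEG limits. Fewer genes were tested without dim probes. In each setting with 4 or 5 of the 9 called lower, more of all genes were called as well. Cluster neighbours called lower, 0 in the report, numbered 2 with offset 50, 1 with the processed signal quantile normalized, 6 without dim probes, 1 with the most intense probe, 1 with a linear average and 2 with a trend. Other imprinted genes called lower, 1 in the report, numbered 2 with offset 50, 2 without background correction, 4 with the processed signal quantile normalized, 3 without dim probes, 7 with a trend and 0 at FDR below 0.05. The cause of these shifts was not tested. With single arrays left out all 4 counts ranged from 0 to 0, and the smallest FDR over all genes was 0.404 to 0.683. With the replicate block the number called was 0 for all genes, for the 9, for the neighbours and for other imprinted genes, with 1 residual degree of freedom. Deviations from the age mean correlated at -0.0779 between arrays of the same replicate number. With 2 arrays per age the crossed value is its opposite by construction, so this cannot decide whether the numbers pair the samples. The arrays of replicate 1 shared a slide. Over 5 other backgrounds and scalings the 4 Meg3 probes kept their directions and differed from each other at FDR from 0.00053 to 0.061, and with the replicate block at 0.15 to 0.22. The brighter Dlk1 probe was called higher in 4 of these 5 (0.36 to 0.76). Slide as a random block could not be estimated, and with 1 scan day no scan batch exists. The processed signal scaled to the 75th percentile moved the median of all genes to 0.066, and no scaling moved it further. Signal over background limits Grb10 and Dlk1.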
